A study of Mus musculus with 10 samples.

Results

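The 9 genes described here are the Hedgehog ligands Shh, Ihh and Dhh, the receptor Ptch1, the signal transducer Smo, the transcription factors Gli1, Gli2 and Gli3, and the ligand-binding inhibitor Hhip. They were taken from the 38924 genes of the count files by gene symbol alone, each was found once, and no measured value entered the choice. RNAseq was performed on 10 samples of cells sorted at day 5 of mouse embryonic stem cell differentiation, from a line in which a truncated human CD4 (hCD4) is expressed from the Foxa2 gene and lets live cells be stained for Foxa2 expression. All 4 populations carry this allele. Foxa2+ CM (3 samples) and Foxa2- CM (3 samples) are cardiac mesoderm, sorted as Pdgfra+ Kdr+ cells with or without hCD4. Haematopoietic mesoderm (2 samples, labelled Flk1+ high, Flk1 being another name of Kdr) is the Kdr+ population without Pdgfra or hCD4 of the same kind of culture. These cultures received Activin A at 8 ng/ml with BMP4 and VEGF from day 2, whereas the Endoderm samples (2 samples) are hCD4+ cells without Pdgfra or Kdr from cultures given Activin A at 75 ng/ml, so that for endoderm the cell type and the culture condition cannot be told apart. The cells come from a single engineered line, and nothing in the sources says that same-named samples were separate cultures, so p-values measure the spread between these samples, which may be technical.

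Hedgehog proteins are secreted ligands that bind Patched receptors. Patched holds the membrane protein Smoothened (Smo) inactive until ligand binds, after which Smoothened acts through the primary cilium to keep the Gli proteins from being cut into repressors. Gli2 is known mainly as an activator and Gli3 mainly as a repressor, while Gli1, Ptch1 and Hhip are transcribed in response to the signal in many tissues, Ptch1 and Hhip then limiting it. In the early mouse embryo Shh is made by the node, notochord and gut endoderm, and Shh with Ihh signals through Smo to the mesoderm that forms the heart tube.

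Hhip was the 1 member called between Foxa2+ CM and Foxa2- CM by edgeR, at a mean of 29.0 ± 3.69 CPM against 8.07 ± 1.18 CPM (SD, n = 3 in each). Gli1 and Ihh, both lower in Foxa2+ CM, did not overlap between these populations either, as was the case for 24.0% of tested genes. Neither was called by edgeR (adjusted p = 0.0777 for Gli1 and 0.595 for Ihh), while Gli1 passed by DESeq2 (adjusted p = 0.0106). Haematopoietic mesoderm had less Gli1, Gli2 and Hhip mRNA than either CM population, and endoderm had slightly more Smo mRNA and less Dhh mRNA than the other 3 populations. Ptch1 passed the test in none of the 6 comparisons between populations by edgeR, where its unadjusted p was below 0.05 in 1 of them, nor by DESeq2. CPM are counts scaled to a common normalized library size, as a rate per 1e6 counts. A call means an adjusted p (edgeR quasi-likelihood test with Benjamini-Hochberg adjustment over all tested genes) below 0.05.

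**Figure D1:**
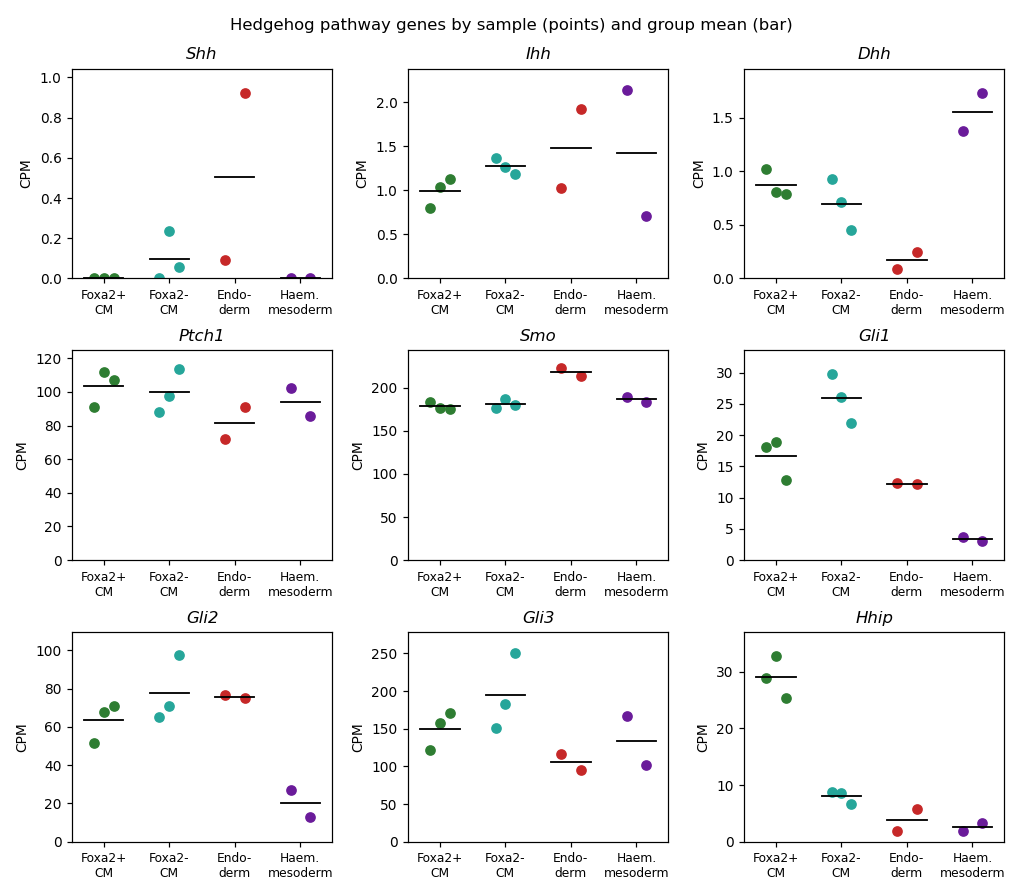
Expression of the 9 genes in CPM (vertical axes, linear, from 0), with 1 point per sample, ordered by replicate number, and a bar at the mean of each population. The 3 Foxa2+ CM samples lie between 25.4 and 32.8 CPM for Hhip, above every other sample, and both haematopoietic mesoderm samples lie below all others for Gli1 and Gli2.

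The samples held between 10926284 and 17470126 counts on genes, so that 3 counts, taken as the smallest detectable signal, correspond to 0.169 to 0.280 CPM. Without molecular identifiers, such a floor accounts for counting error alone. The sort was checked on its own genes. Foxa2 was at 20.0, 16.0 and 3.50 CPM in Foxa2+ CM replicates 1, 2 and 3, at 2.54, 0.873 and 0.903 CPM in Foxa2- CM, at 186 and 183 CPM in endoderm and at 0.690 and 0.788 CPM in haematopoietic mesoderm. The groups do not overlap, but Foxa2+ CM replicate 3 stands close to Foxa2- CM replicate 1. Kdr was at 8.10 CPM on average in endoderm and between 381 and 574 CPM in the other 3 populations, and Pdgfra averaged 221 CPM (Foxa2+ CM) and 286 CPM (Foxa2- CM) against 29.1 CPM in haematopoietic mesoderm and 60.8 CPM in endoderm. Epcam, an epithelial surface protein, was at 137 CPM in endoderm and between 11.4 and 32.6 CPM elsewhere. In sorted bulk samples, fewer expressing cells and less RNA per cell cannot be told apart.

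Of the 9 genes, 8 passed the expression filter in both fits and were tested, and Shh did not pass. Between Foxa2+ CM and Foxa2- CM, 1 of 8 was called, where 6.48% of the 15284 tested genes were called. Endoderm differed from Foxa2+ CM in 3 of 8 (35.0% of the 16180 tested genes) and from Foxa2- CM in 4 of 8 (30.1%), of which 2 also changed at least 2-fold, as 17.0% of tested genes did. Haematopoietic mesoderm differed from Foxa2- CM in 3 of 8 (21.6%) and from Foxa2+ CM in 3 of 8 (22.8%), all of them lower there, as were 10.3% and 11.2% of tested genes. Endoderm and haematopoietic mesoderm differed in 4 of 8 (32.6%). With 8 genes tested, these counts are no result about the 9 genes as a group. Samples that do not overlap between populations are common where a population has 2 samples. They were found for 46.0% to 63.6% of tested genes in the 5 comparisons with endoderm or haematopoietic mesoderm and for 24.0% between the CM populations. The median log2 fold change of the tested members was -0.16 between Foxa2+ CM and Foxa2- CM, -0.39 for endoderm against Foxa2+ CM and -0.59 for endoderm against Foxa2- CM. It was -0.31 for haematopoietic mesoderm against Foxa2- CM, -0.15 against Foxa2+ CM and 0.13 for endoderm against haematopoietic mesoderm. Over all tested genes each of these medians lay within 0.03 of 0. Comparisons that share a population share its samples and are not independent of each other.

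**Figure D2:**
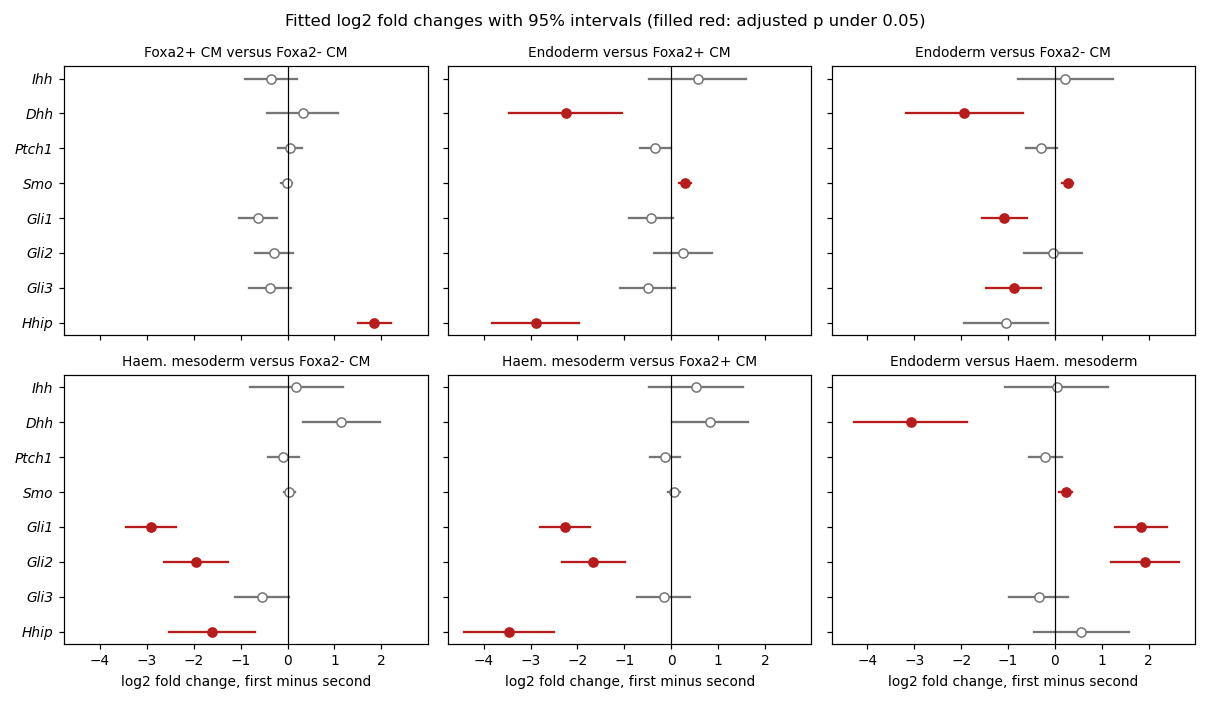
Fitted log2 fold changes (horizontal axes, first population minus second) of the 8 tested genes in the 6 comparisons, with 95% intervals as lines; filled red points mark adjusted p below 0.05. Hhip is the red point between the CM populations at 1.85, and Gli1, Gli2 and Hhip are the red points in both comparisons of haematopoietic mesoderm with CM.

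The 3 ligand genes were low in all samples, with at most 34 counts. Shh (chr5:28456815-28467256 in mm10, minus strand), which encodes Sonic hedgehog, had 0 counts in each Foxa2+ CM sample and in both haematopoietic mesoderm samples, which allows up to 3 counts in each. It had 0, 3 and 1 counts in Foxa2- CM and 1 and 11 counts in endoderm. Only endoderm replicate 2, at 0.920 CPM, stood above the floor of 3 counts. Parts of the Shh exons overlap exons of the genes 9530036O11Rik (446 bases) and Gm26894 (361 bases) on the other strand, and the library kit does not mark strand, so reads from these stretches cannot be assigned to Shh with certainty. Without the expression filter, edgeR called Shh in endoderm against Foxa2+ CM (adjusted p = 0.0271) and in none of the other 5 comparisons. No fold is given for a gene at 0 counts in 1 group and 1 count in a sample of the other.

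Ihh (chr1:74945315-74951672, minus strand), Indian hedgehog, was read in every sample. It had 11, 18 and 20 counts in Foxa2+ CM, 22, 16 and 21 in Foxa2- CM, 11 and 23 in endoderm and 34 and 9 in haematopoietic mesoderm. In CPM the CM samples do not overlap, at 0.804 to 1.13 in Foxa2+ CM and 1.19 to 1.36 in Foxa2- CM, as was the case for 24.0% of tested genes. The log2 fold change of -0.34 between them had a 95% interval of -0.90 to 0.21 and an adjusted p of 0.595 (edgeR). In order, Ihh stood at 1.47, 1.42, 1.27 and 0.991 CPM in endoderm, haematopoietic mesoderm, Foxa2- CM and Foxa2+ CM, and no pair in this order passed the test.

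Dhh (chr15:98891152-98898540, minus strand), Desert hedgehog, which is known from Schwann cells, Sertoli cells and endothelium, was lowest in endoderm. It had 14 counts in each Foxa2+ CM sample, 15, 9 and 8 in Foxa2- CM, 22 in both haematopoietic mesoderm samples, and 1 and 3 in endoderm. Both endoderm samples are at or near the floor and lie below all others, and both haematopoietic mesoderm samples, at 1.38 and 1.73 CPM, lie above all others. Dhh was lower in endoderm than in Foxa2+ CM (log2 fold change -2.25, SE 0.54, adjusted p = 0.0101), than in Foxa2- CM (-1.93, SE 0.55, adjusted p = 0.0268) and than in haematopoietic mesoderm (-3.08, SE 0.54, adjusted p = 0.00214). Without endoderm replicate 1, which holds the single count, the adjusted p was 0.0780 against Foxa2+ CM and 0.161 against Foxa2- CM, and the latter call was also lost without Foxa2- CM replicate 1 (0.0703) and by DESeq2 (0.108). Without endoderm replicate 2, the log2 fold changes were -3.13 (Foxa2+ CM), -2.80 (Foxa2- CM) and -3.94 (haematopoietic mesoderm). Haematopoietic mesoderm exceeded Foxa2- CM by 1.15 on the log2 scale (95% interval 0.33 to 1.97, adjusted p = 0.0518) and Foxa2+ CM by 0.83 (0.03 to 1.63, adjusted p = 0.128), and neither passed. The summed level of 5 endothelial markers was 418 and 821 CPM in haematopoietic mesoderm, 12.4 to 37.7 CPM (Foxa2+ CM), 11.5 to 119 CPM (Foxa2- CM) and 3.73 and 5.69 CPM in endoderm, in the same order as Dhh in its highest and lowest population. Emcn, 1 of the 5, was at 0 counts in 9 of 10 samples. Within CM the order differed, as Foxa2- CM replicate 3 held the highest sum (119 CPM) and the lowest Dhh (0.451 CPM) of the CM samples. The part of endothelial cells in the Dhh levels was not tested. The Dhh exons share 546 bases with the neighbouring gene Rhebl1 on the same strand.

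Per kilobase of exon, the 3 ligands together stood at 0.390 to 1.01 CPM per kb in the 10 samples, against 5.1 to 8.0 CPM per kb for Ptch1 and 31.3 to 39.7 CPM per kb for Smo. Ihh made up the largest share of the ligand reads per kilobase in 9 of 10 samples, and Dhh in haematopoietic mesoderm replicate 2. With 13 to 56 ligand counts in a sample, differences of this size rest on few reads.

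The receptor genes were well covered and varied little. Ptch1 (chr13:63508328-63573598, minus strand) encodes the main Hedgehog receptor, and its mRNA is the most used readout of the signal. It was at 91.1, 112 and 107 CPM in the 3 Foxa2+ CM samples, 88.4, 97.8 and 114 CPM in those of Foxa2- CM, 72.3 and 90.9 CPM in endoderm and 102 and 85.6 CPM in haematopoietic mesoderm. The groups overlap except for endoderm and Foxa2+ CM, whose nearest samples are at 90.9 and 91.1 CPM. The order of means was 103, 99.9, 94.0 and 81.6 CPM in Foxa2+ CM, Foxa2- CM, haematopoietic mesoderm and endoderm, and no neighbours in it differed beyond their spread. Between the CM populations the log2 fold change was 0.05, with a 95% interval of -0.21 to 0.31 and an adjusted p of 0.902 (edgeR). The difference furthest from 0, endoderm against Foxa2+ CM, was -0.34 (95% interval -0.67 to -0.01, adjusted p = 0.0992).

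Smo (chr6:29735503-29761365, plus strand), the transducer that Patched holds back, was the most abundant member per kilobase in every sample. It was at 183, 176 and 176 CPM in the 3 Foxa2+ CM samples, 177, 187 and 180 CPM in those of Foxa2- CM, 223 and 213 CPM in endoderm and 190 and 184 CPM in haematopoietic mesoderm. Both endoderm samples lie above all 8 mesoderm samples. The difference was small and called against Foxa2+ CM (1.22-fold, log2 fold change 0.29, SE 0.06, adjusted p = 0.00323), Foxa2- CM (1.2-fold, 0.27, SE 0.06, adjusted p = 0.00580) and haematopoietic mesoderm (1.17-fold, 0.23, SE 0.06, adjusted p = 0.0186). Without endoderm replicate 1 the adjusted p was 0.0649 against Foxa2- CM and 0.106 against haematopoietic mesoderm, and the latter was 0.0762 without haematopoietic mesoderm replicate 2 and 0.120 with only those groups in the fit. The CM populations differed by -0.02 on the log2 scale (95% interval -0.15 to 0.10), and haematopoietic mesoderm differed from neither of them by the test (0.04 and 0.07).

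The Gli genes differed in which populations held them. Gli1 (chr10:127329882-127341974, minus strand), whose transcription depends on the Hedgehog signal in most tissues, was at 18.1, 18.9 and 12.8 CPM in the 3 Foxa2+ CM samples and at 29.8, 26 and 21.9 CPM in those of Foxa2- CM. It was at 12.3 and 12.2 CPM in endoderm and at 3.76 and 3.07 CPM in haematopoietic mesoderm. The 4 populations do not overlap, in the order Foxa2- CM, Foxa2+ CM, endoderm and haematopoietic mesoderm. Gli1 was lower in haematopoietic mesoderm than in Foxa2- CM (7.53-fold, log2 fold change -2.91, SE 0.24, adjusted p = 0.000144), in Foxa2+ CM (4.83-fold, -2.27, SE 0.23, adjusted p = 0.000353) and in endoderm (3.57-fold, adjusted p = 0.000551). It was also lower in endoderm than in Foxa2- CM (2.11-fold, log2 fold change -1.08, SE 0.21, adjusted p = 0.00469). These 4 calls held under every alternative run.

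Neighbours at the top of that order did not pass. Foxa2+ CM stood below Foxa2- CM by 0.64 on the log2 scale (log2 fold change -0.64, SE 0.18, 95% interval -1.04 to -0.23, unadjusted p = 0.00671 and adjusted p = 0.0777 by edgeR). The CM samples do not overlap, with Foxa2+ CM lower, as was the case for 10.4% of tested genes. The adjusted p was between 0.000436 and 0.224 over 14 alternatives and below 0.05 in 5 of them, which were DESeq2 (0.0106), no expression filter (0.0377), the replicate block (0.000903), leaving out Foxa2- CM replicate 3 (0.0222) and leaving out replicate 3 of both populations (0.000436). Endoderm stood below Foxa2+ CM by a log2 fold change of -0.44 (95% interval -0.91 to 0.04, adjusted p = 0.138 by edgeR), and this was called with the replicate block (-0.56, 0.0291) and without replicate 3 of both CM populations (-0.62, 0.0356). A stretch of 62 exonic bases of Gli1 overlaps Arhgap9 on the other strand.

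Gli2 (chr1:118834132-119053619, minus strand), the main activator of the family, was at 51.4, 67.8 and 71.1 CPM in the 3 Foxa2+ CM samples, 65.3, 71 and 97.3 CPM in those of Foxa2- CM, 76.8 and 74.9 CPM in endoderm and 27.2 and 12.7 CPM in haematopoietic mesoderm. Both haematopoietic mesoderm samples lie below all others, and the other 3 populations are close. Haematopoietic mesoderm was lower than Foxa2- CM (3.88-fold, log2 fold change -1.95, SE 0.30, adjusted p = 0.00226), Foxa2+ CM (3.16-fold, -1.66, SE 0.30, adjusted p = 0.00457) and endoderm (3.77-fold, log2 fold change of endoderm against it 1.91, adjusted p = 0.00175). Without haematopoietic mesoderm replicate 1, the higher of its samples, these log2 fold changes were -2.62, -2.32 and 2.58. Among the other populations the log2 fold change was -0.30 for Foxa2+ CM against Foxa2- CM (95% interval -0.70 to 0.11, and -0.09 without Foxa2- CM replicate 3), 0.26 for endoderm against Foxa2+ CM (-0.37 to 0.88) and -0.04 for endoderm against Foxa2- CM (-0.66 to 0.59).

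Gli3 (chr13:15463235-15730026, plus strand), the main repressor of the family, was at 122, 157 and 171 CPM in the 3 Foxa2+ CM samples, 151, 183 and 250 CPM in those of Foxa2- CM, 117 and 95.4 CPM in endoderm and 167 and 102 CPM in haematopoietic mesoderm. Haematopoietic mesoderm overlaps endoderm and both CM populations, and endoderm lies below the CM samples. The order of means was 195, 150.0, 134 and 106 CPM in Foxa2- CM, Foxa2+ CM, haematopoietic mesoderm and endoderm, and no neighbours in it passed the test. Endoderm against Foxa2- CM, the ends of the order, was called (1.84-fold lower, log2 fold change -0.88, SE 0.26, adjusted p = 0.0306). That call was lost in 6 of 19 alternatives, with adjusted p of 0.0544 without Foxa2- CM replicate 2, 0.0754 without Foxa2- CM replicate 3, 0.0852 without endoderm replicate 1, 0.181 without endoderm replicate 2, 0.0814 without replicate 3 of both CM populations and 0.0529 with the replicate block. Foxa2+ CM and Foxa2- CM differed by -0.38 (95% interval -0.83 to 0.07, adjusted p = 0.362 by edgeR), and by -0.14 without Foxa2- CM replicate 3. Foxa2- CM replicate 3 held the highest Gli2 and Gli3 of the 10 samples, and was the CM sample with the highest summed endothelial markers, at 119 CPM against 11.5 to 37.7 CPM in the other 5. Haematopoietic mesoderm, where these markers summed to 418 and 821 CPM, held the lowest Gli2 of the 10 samples (27.2 and 12.7 CPM). The part of endothelial cells in these levels was not tested. Gli3 shares 188 exonic bases with Gm6556 on the other strand.

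Within a sample, the Gli genes can be set against each other per kilobase of exon. Gli3 made up 53.4%, 54.5% and 58.0% of the Gli1, Gli2 and Gli3 reads per kilobase in Foxa2+ CM and 50.4%, 55.1% and 58.5% in Foxa2- CM. It was 47.1% and 42.7% in endoderm, where Gli2 was close to it at 43.3% and 46.8%, and 78.6% and 81.2% in haematopoietic mesoderm. The CM populations overlap, and endoderm and haematopoietic mesoderm lie to either side of them. In counts, Gli3 exceeded Gli2 by a ratio of 2.31 to 2.58 over the 6 CM samples, of 1.52 and 1.27 in endoderm and of 6.12 and 8.02 in haematopoietic mesoderm. Gli1 made up 8.34% to 19.1% in CM, 9.55% and 10.5% in endoderm and 3.41% and 4.71% in haematopoietic mesoderm. These shares are descriptions of mRNA and do not measure the activator and repressor forms of the proteins.

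**Figure D3:**
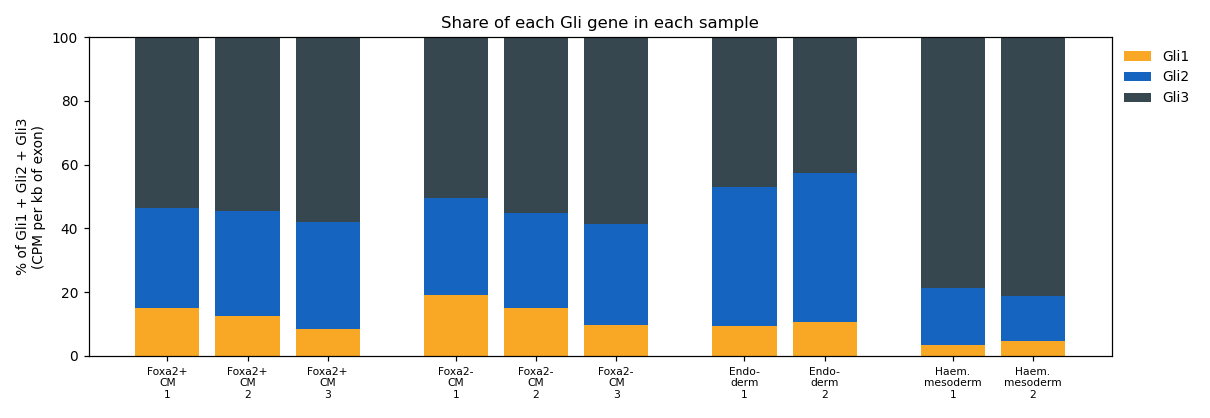
Share of Gli1, Gli2 and Gli3 in their sum in each of the 10 samples (vertical axis, % of the summed CPM per kb of exon; 1 stacked bar per sample, labelled by population and replicate number). Gli3 takes 78.6% and 81.2% in haematopoietic mesoderm, 50.4% to 58.5% in the CM samples and 47.1% and 42.7% in endoderm.

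Hhip (chr8:79965851-80058006, minus strand) encodes a membrane and secreted protein that binds all Hedgehog ligands and keeps them from Patched. It was at 28.9, 32.8 and 25.4 CPM in the 3 Foxa2+ CM samples, at 8.85, 8.65 and 6.72 CPM in those of Foxa2- CM, at 1.96 and 5.77 CPM in endoderm and at 1.95 and 3.39 CPM in haematopoietic mesoderm. All Foxa2+ CM samples lie above all Foxa2- CM samples, which lie above the other 4, and endoderm and haematopoietic mesoderm overlap. Hhip was higher in Foxa2+ than in Foxa2- CM by 3.61-fold (log2 fold change 1.85, SE 0.15, 95% interval 1.5 to 2.20, adjusted p = 0.00137), where 3.81% of tested genes were called higher. Its absolute log2 fold change ranked 188 of 15284. The call held in all 14 alternatives, with adjusted p from 7.1e-23 (DESeq2) to 0.0330 (all 10 samples in 1 model), and the log2 fold change lay between 1.74 and 1.94. Without replicate 3 of both populations, the pair in which Foxa2 itself was lowest in Foxa2+ CM, it was 1.83.

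Against Foxa2+ CM, Hhip was 7.43-fold lower in endoderm (log2 fold change -2.89, SE 0.41, adjusted p = 0.000664, and -3.91 without endoderm replicate 2) and 11-fold lower in haematopoietic mesoderm (-3.45, SE 0.43, adjusted p = 0.000771). Against Foxa2- CM, it was 3.05-fold lower in haematopoietic mesoderm (-1.61, SE 0.41, adjusted p = 0.0211), a call lost without haematopoietic mesoderm replicate 1 (0.0992), Foxa2- CM replicate 1 (0.0601) or Foxa2- CM replicate 2 (0.0552). Endoderm against Foxa2- CM did not pass (-1.05, 95% interval -1.94 to -0.16, adjusted p = 0.0751), and it was called in 5 of 19 alternatives. Without endoderm replicate 2, which held 69 Hhip counts against 21 in replicate 1, the log2 fold change was -2.05 (adjusted p = 0.00730). Hhip shares 175 exonic bases with Gm27820, a non-coding RNA gene on the other strand, out of 9076.

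Gli1 and Ptch1, the other members that the signal is known to raise, were not called higher in Foxa2+ CM. Counts of Hhip per count of Gli1 were 1.60, 1.73 and 1.98 in Foxa2+ CM and 0.297, 0.332 and 0.307 in Foxa2- CM. Counts of Hhip per count of Ptch1 were 0.317, 0.294 and 0.236 against 0.100, 0.0885 and 0.0591. Neither ratio overlaps between the CM populations, but both restate the levels given above and are no separate result. Of 6 definitive endoderm markers, 1 was higher and 2 were lower in every Foxa2+ CM sample than in every Foxa2- CM sample, and 3 overlapped, with none at 0 in any sample. Their sum was 140 to 146 CPM (Foxa2+ CM) and 138 to 157 CPM (Foxa2- CM), most of it from Cxcr4 (83.9 and 105 CPM on average), and 739 and 893 CPM in endoderm, where Hhip was at most 5.77 CPM. The 6 visceral endoderm markers, each of which overlapped, summed to 9.06 to 18.7 CPM (Foxa2+ CM) and to 1.73, 1.35 and 18.3 CPM (Foxa2- CM). Of the 6 node and notochord markers, 1 (T) was higher and 1 (Nog) lower in every Foxa2+ CM sample than in every Foxa2- CM sample, and 4 overlapped. Noto was at 0 in 5 of 6 CM samples. The summed level was 114 to 123 CPM (Foxa2+ CM) and 91.2 to 114 CPM (Foxa2- CM), most of it from T (109 and 94.3 CPM on average). Of 4 markers of pluripotent cells, 2 were lower and 1, Esrrb, was higher in every Foxa2+ CM sample, and the sum was 43.8 to 50.1 CPM against 68.1 to 105 CPM. Of 6 markers of cardiac mesoderm (Kdr and Pdgfra of the sort among them), 3 were lower and 1, Tbx5, was higher in every Foxa2+ CM sample, and the sum was 907 to 1034 CPM against 1095 to 1237 CPM, with no marker at 0. Over all tested genes, 24.0% did not overlap between the CM populations. With few markers in each list, the counts of markers are no result about the lists. The part of the marker differences in the Hhip and Gli1 levels was not tested.

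Hhip was the only member called between the CM populations by edgeR as reported. For that reason the 250 bases upstream of its start are shown, from RefSeq on the GRCm38.p6 build (chr8:80058009-80058258, minus strand, written 5′ to 3′ toward the start site).
Hhip upstream: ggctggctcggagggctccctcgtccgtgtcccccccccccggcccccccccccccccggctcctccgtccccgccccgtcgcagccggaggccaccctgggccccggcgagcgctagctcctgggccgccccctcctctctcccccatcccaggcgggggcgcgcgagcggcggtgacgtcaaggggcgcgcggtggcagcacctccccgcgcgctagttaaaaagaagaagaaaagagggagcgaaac
The stretch is 76.0% G and C and holds 28 CG pairs. Neither the Gli binding sequence GACCACCCA nor the forkhead sequence TGTTTAC was found in it on either strand, and so no letters are in capitals. The RefSeq table holds such windows for 7 of the 9 genes, none of which contained either sequence. Over all 32851 windows of this length, the Gli sequence was in 0.225% and the forkhead sequence in 3.17% of them. The search covers these letters and this window only.

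Other genes act on the ligands outside the responding cell. Of 6 genes for ligand release and range, 5 were tested, and haematopoietic mesoderm differed from Foxa2- CM in 3 (1 higher and 2 lower, where 21.6% of all tested genes were called) and from Foxa2+ CM in 4 (2 higher and 2 lower, 22.8%). Endoderm differed from neither CM population in any by edgeR (35.0% and 30.1% of all tested genes). At an unadjusted p below 0.05 there were 0 against Foxa2+ CM and 1 against Foxa2- CM, and DESeq2 called 0 and 1. The lower gene Disp1, which releases the ligand from the membrane, was called in 9 of 19 and 10 of 19 alternatives. Of the genes higher than in Foxa2+ CM, Scube1 was carried by haematopoietic mesoderm replicate 1 (15.9 CPM against 1.26 CPM in replicate 2), was called in 7 of 19 alternatives, and had a log2 fold change of 2.46 that became -0.31 without that sample. Scube1, Scube2 and Scube3 encode secreted proteins that help to release Hedgehog from the producing cell. Scube2 was at 92.3 and 163 CPM in haematopoietic mesoderm and between 4.29 and 24.2 CPM in the other 8 samples. It was called higher there than in Foxa2- CM (log2 fold change 3.43, SE 0.74, adjusted p = 0.0101) and Foxa2+ CM (3.09, SE 0.72, adjusted p = 0.0145). Scube3 had the opposite pattern, at 1.88 and 5.20 CPM in haematopoietic mesoderm and between 13.7 and 91.9 CPM in the others (-3.90 against Foxa2- CM, adjusted p = 0.00629, and -2.77 against Foxa2+ CM, adjusted p = 0.0245). The Scube2 call against Foxa2+ CM was lost without Foxa2+ CM replicate 1 or 2 or haematopoietic mesoderm replicate 2, and the Scube3 call without Foxa2+ CM replicate 3 or haematopoietic mesoderm replicate 1. Between the CM populations 1 of 5 was called (6.48% of all tested genes were), Scube1 at 1.17, 1.56 and 1.92 CPM in the Foxa2+ samples and 4.71, 3.65 and 3.33 CPM in the Foxa2- samples (-1.31, SE 0.25, adjusted p = 0.0218). This call held in 8 of 13 alternatives and was lost without replicate 1 or 2 of either population and with all 10 samples in 1 model.

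All 4 genes of the list of co-receptors were tested. Boc, Cdon and Gas1 are surface proteins that bind the ligand together with Patched. Boc was at 29.3, 31.9 and 37.9 CPM in the 3 Foxa2+ CM samples, 47.2, 48.6 and 56.3 CPM in those of Foxa2- CM, 9.04 and 5.94 CPM in endoderm and 30.2 and 11.9 CPM in haematopoietic mesoderm. It was the 1 of 4 called between the CM populations (6.48% of all tested genes were), lower in Foxa2+ CM (log2 fold change -0.61, SE 0.12, adjusted p = 0.0225). The call held in 9 of 14 alternatives and was lost without replicate 1 or 2 of either population and with all 10 samples in 1 model. Against endoderm the calls held in all 19 alternatives for Boc (-2.15 for endoderm against Foxa2+ CM and -2.76 against Foxa2- CM) and for Gas1, which was at 43.8 and 39.1 CPM in endoderm and 88.0 to 120 CPM in CM (-1.28 and -1.36).

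Cdon went the other way, at 96.2 and 107 CPM in endoderm and 50.5 to 62.7 CPM in CM (0.90 against Foxa2+ CM, adjusted p = 0.00634, and 0.86 against Foxa2- CM, adjusted p = 0.00967), a call lost in both without endoderm replicate 2. In haematopoietic mesoderm Gas1 was at 35.6 and 54.0 CPM, lower than in both CM populations (-1.25 and -1.17).

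**Figure D4:**
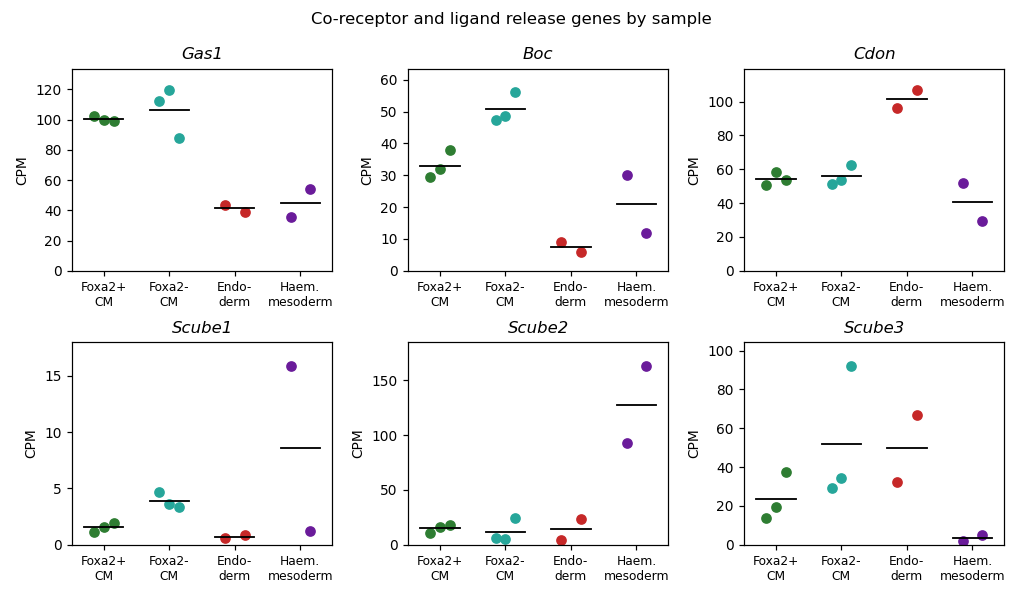
Expression of the co-receptor genes Gas1, Boc and Cdon and of Scube1, Scube2 and Scube3 in CPM (vertical axes, linear, from 0), with 1 point per sample and a bar at the mean of each population. Boc is lower in the 3 Foxa2+ CM samples (29.3 to 37.9 CPM) than in the 3 Foxa2- CM samples (47.2 to 56.3 CPM), and Scube2 reaches 92.3 and 163 CPM in haematopoietic mesoderm.

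Of 7 known targets outside the 9 genes, 6 were tested. Foxf1, a forkhead factor of visceral and lateral mesoderm, was at 26.2, 40.4 and 78.3 CPM in the 3 Foxa2+ CM samples, 84.9, 101 and 128 CPM in those of Foxa2- CM, 11.2 and 17.4 CPM in haematopoietic mesoderm and 1.02 and 0.502 CPM in endoderm. The populations do not overlap and lie in the order of Gli1 except that endoderm, not haematopoietic mesoderm, is last. Endoderm was lower than Foxa2+ CM and Foxa2- CM (log2 fold changes -5.99 and -7.10, adjusted p = 0.000151 and 6.8e-05), and haematopoietic mesoderm than Foxa2- CM (-2.88, adjusted p = 0.00236) and Foxa2+ CM (-1.77, adjusted p = 0.0176). The last call was lost without haematopoietic mesoderm replicate 1 and with only those groups in the fit. The CM populations differed by -1.11 (95% interval -1.92 to -0.29), which did not pass (adjusted p = 0.122). Osr1, a factor of intermediate and lateral mesoderm, was the 1 of 6 called between them by edgeR (6.48% of all tested genes were), and DESeq2 called 2, Osr1 and Ccnd2. At an unadjusted p below 0.05 there were 4 of 6, and the share of all tested genes at that limit is not given here. Osr1 had 1, 1 and 9 counts in Foxa2+ CM and 35, 28 and 166 in Foxa2- CM (-4.34, SE 0.89, adjusted p = 0.0294). The call was lost without Foxa2+ CM replicate 1 or 2 or Foxa2- CM replicate 2. The targets did not all go 1 way. Mycn was at 148 to 160 CPM in Foxa2+ CM and 128 to 146 CPM in Foxa2- CM, and Bcl2 averaged 12.2 and 10.1 CPM with overlap, neither being called. Ccnd2, which encodes cyclin D2, was lower in endoderm than in Foxa2- CM (-1.41, adjusted p = 0.00886).

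None of 13 cytoplasmic regulators was called between the CM populations by edgeR, where 6.48% of all tested genes were called, or by DESeq2. At an unadjusted p below 0.05 there was 1. Between endoderm and CM, 3 of 13 were called against either population (35.0% of all tested genes for Foxa2+ CM and 30.1% for Foxa2- CM). Haematopoietic mesoderm differed in 3 from Foxa2- CM (21.6%) and 2 from Foxa2+ CM (22.8%), and endoderm and haematopoietic mesoderm differed in 6 (32.6%). Sufu, which holds Gli proteins in the cytoplasm, was at 168 ± 4.60 CPM (Foxa2+ CM) and 166 ± 5.44 CPM (Foxa2- CM) (SD, n = 3 each), with a log2 fold change of 0.02 (95% interval -0.11 to 0.14), and Kif7, a ciliary kinesin, differed by -0.01 (-0.17 to 0.16). Of 10 genes of the primary cilium, 0 were called between the CM populations by either tool, and 1 had an unadjusted p below 0.05. Endoderm differed from Foxa2+ CM in 2 (35.0% of all tested genes) and from Foxa2- CM in 3 of them (30.1%), all lower. Haematopoietic mesoderm differed in 1 from each (21.6% of all tested genes for Foxa2- CM and 22.8% for Foxa2+ CM). With few genes in each list, these counts are no result about the lists. Gnas is the stimulatory G protein subunit that restrains Hedgehog signalling through protein kinase A. In endoderm, Gnas was lower than in Foxa2+ CM (-0.84, adjusted p = 0.00134) and Foxa2- CM (-0.78, adjusted p = 0.00246). The other 2 regulators called in endoderm, Btrc and Prkaca, were higher there than in either CM population. Btrc exceeded Foxa2+ CM by 0.33 (called in 17 of 19 alternatives) and Foxa2- CM by 0.52 (19 of 19). Prkaca exceeded each by 0.30 (10 of 19 and 9 of 19). Kif3a, a motor subunit needed to build cilia, was lower in endoderm (-0.62 in both, adjusted p = 0.00866 and 0.0103, the latter lost without endoderm replicate 2). In haematopoietic mesoderm, 2 kinases, Stk36 and Ulk3, were lower than in Foxa2- CM (-0.98 and -0.70, adjusted p = 0.0141 and 0.00492) and Foxa2+ CM (-0.90 and -0.73, adjusted p = 0.0187 and 0.00416). Both Stk36 calls were lost with only the compared groups in the fit, and the call against Foxa2+ CM was also lost without Foxa2+ CM replicate 2.

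Over the 10 samples, the genes whose log2 CPM followed each member most closely were sought among the 12205 genes whose counts averaged 50 or more. For Hhip these were Btd (Pearson r = 0.97) and Vps53 (0.97), for Gli1 Rps6ka4 (0.97) and Armc7 (0.96), and for Gli2 Ext1 (0.98) and Irf1 (0.98). For Gli3 they were Dnah2 (0.94) and Fam217b (0.92), for Ptch1 Zbtb16 (0.96) and Erich1 (0.95), and for Smo Nudt12 (0.98). Dhh was followed by Thap4 and Gphn (0.98 each) and Ihh by Extl3 (0.96) and Retreg2 (0.93). The points are samples of 4 populations and share libraries and depth, so these coefficients describe the likeness of 2 profiles over the samples. They were picked as the highest of 12205 genes over 10 samples, a choice that by itself favours high values. For Ihh and Ptch1, called in no comparison by edgeR, they describe no tested difference between populations.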

How the data were processed

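RNA from sorted cells of 4 populations was sequenced in 10 samples (3, 3, 2 and 2 of Foxa2+ CM, Foxa2- CM, endoderm and haematopoietic mesoderm). The authors prepared libraries with a kit that does not mark strand, aligned 50 nt single-end reads to mm10 with STAR (2.5.0a, two-pass), discarded duplicates with Picard and assigned reads to genes with HTSeq (0.6.0; its strand setting is not given in the sources used here). The authors deposited raw, whole counts for each gene, in files of 38924 gene rows and 5 summary rows that were left out. Removing duplicates without molecular identifiers caps counts of dense genes. Among the members Smo was densest, at up to 0.566 counts per exonic base, and the part of this cap in its differences was not tested.

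From the counts, genes were matched by identifier without version to GENCODE M21 (37607 matched), a later annotation of the same build, which also gave exonic lengths. edgeR (4.0.16, R 4.3.3) was used for TMM normalization, its default expression filter and the quasi-likelihood test, two-sided, with Benjamini-Hochberg adjustment over all tested genes. The CM populations were compared on their 6 samples and the other 5 pairs in 1 model of all 10 samples. A standard error is the size of the log2 fold change over the root of F. Coefficients of likeness used log2 CPM with a prior count of 2. The tests were tested on simulated counts. Alternatives were DESeq2 (1.42.0), other size factors, filters, call rules, sample sets, a replicate block and leaving out replicates. The genes named were all 9 members, list genes past the call rule (at most 4 per list and comparison, largest change first), and the 2 genes most like each member. Genes that met this rule but are not reported here were left out of the lists and the text. Sufu, Kif7, Mycn, Bcl2, the values of Foxf1 and Noto that did not pass, and Cxcr4, Emcn, Esrrb, Tbx5, T and Nog of the marker lists were named after their values were seen. The members and lists were chosen with earlier results of these data known. Replicates differed by more than sampling noise, so each sample was counted once. Figures used matplotlib 3.10.9.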

Additional observations from a re-analysis of the deposited data

How the results depend on the processing

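Each single-gene result was set against each alternative, which gave 851 pairs. In 799 of them the direction and the side of the threshold were kept, 17 gained a call, 17 lost it and 18 changed sign. Some alternatives left out a sample of a population outside the comparison. Between Foxa2+ CM and Foxa2- CM, the count of members called was 1, and 2 by DESeq2, 2 with no filter and 2 without replicate 3 of both CM groups, Gli1 being the gene added each time. Over all genes, 990 were called as reported, 1329 by DESeq2, 1210 with no filter and 2632 without replicate 3 of both CM groups. The count of members ranged from 1 to 2 when single replicates were left out. The 2 was without Foxa2- CM replicate 3, where 1701 genes were called over all. For endoderm against Foxa2- CM the count of 4 fell to 2 with a limit of at least 2-fold, and ranged from 1 to 5 when single replicates were left out, the 1 being without endoderm replicate 1. When single replicates were left out, the other counts ranged from 3 to 4 (endoderm against Foxa2+ CM), 2 to 3 and 3 to 3 (haematopoietic mesoderm against Foxa2- CM and Foxa2+ CM) and 3 to 4 (endoderm against haematopoietic mesoderm). Where 1 sample of a group of 2 is left, it is assumed to vary like the other groups. The causes were not tested.

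With the replicate number as a block, 4 members were called between the CM populations: Hhip higher, and Gli1 (log2 fold change -0.65, adjusted p = 0.000903), Gli2 (-0.29, 0.0213) and Gli3 (-0.36, 0.00630) lower (edgeR). The block raised calls over all genes as well, to 2556 of the 15284 tested against 990 without it. Deviations of same-numbered CM samples correlated at 0.48, 0.09 and 0.58 (Pearson r across genes), replicates 1 and 3 of both populations correlated best with their own number and replicates 2 did not. No source says what a number shares, so whether the samples are paired is not known, and the block stands as an alternative. It also gained the calls of Gli1 in endoderm against Foxa2+ CM and Hhip in endoderm against Foxa2- CM (0.0282) and lost that of Gli3 in the latter (0.0529).

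The changes of sign concerned log2 fold changes that did not pass the test as reported, and none passed it where the sign had changed. For Gli2, endoderm against Foxa2- CM, the value was 0.11 with the replicate block, 0.15 without replicate 3 of both CM groups, and -0.18 to 0.15 without single replicates. For haematopoietic mesoderm against Foxa2- CM, Smo was -0.011 with upper-quartile size factors and -0.00474 with the mean of at least 50 counts, and Ptch1 was 0.017 without replicate 3 of both CM groups and -0.22 to 0.014 without single replicates. Leaving out single replicates also gave -0.054 to 0.17 for Ptch1 between the CM populations. It gave -0.32 to 0.57 for Ihh in endoderm against Foxa2- CM, -0.83 to 0.72 and -0.49 to 1.06 in haematopoietic mesoderm against Foxa2- CM and Foxa2+ CM. Gli3 in haematopoietic mesoderm against Foxa2+ CM ranged from -0.56 to 0.12. For endoderm against haematopoietic mesoderm the ranges were -0.52 to 1.06 for Ihh, -0.65 to 0.056 for Gli3 and -0.43 to 1.11 for Hhip, whose 1.11, without endoderm replicate 1, passed (adjusted p = 0.0478 by edgeR). Depth limits the ligands most, which had 1 to 34 counts in the samples where they were read.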
